A study of Mus musculus with 11 samples.

Results

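The TGF-beta and activin pathway genes described here were 9 genes chosen by symbol, Tgfb1, Tgfb2, Tgfb3, Inhbb, Tgfbr1, Tgfbr2, Smad3, Smad7 and Ctgf, and all 9 were among the 12787 genes listed for the gonadal white adipose tissue (WAT) of 11 mice. All mice were male C57BL/6J and were fed a 60% high fat diet (HFD) for 20 weeks. Of these mice, 5 received the HFD alone (HFD, the vehicle group of the labels) and 6 received the HFD with 0.06% w/w iodomethylcholine (HFD + IMC), an inhibitor of the bacterial enzyme that makes trimethylamine from choline. Expression was measured by RNA sequencing of 1 library per mouse and is given as log2 CPM, where CPM is the reads of a gene relative to the size of its library after scaling. The cage of each mouse is not given in the sources used here, so the spread between mice may include a shared cage.

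TGF-beta 1, 2 and 3 are secreted in a latent form that is held in the extracellular matrix or on cell surfaces until it is activated. The active ligand binds the type II receptor TGFBR2, which recruits and phosphorylates the type I receptor TGFBR1, and the receptor pair then phosphorylates SMAD2 and SMAD3. Phosphorylated SMADs enter the nucleus with SMAD4 and regulate matrix and other genes, among them Ctgf, while SMAD7 is an inhibitory SMAD that limits signaling at the receptor. Activins act through related receptors and the same SMADs. Inhbb encodes the beta B subunit, whose dimer is activin B, and adipocytes are known to express it together with the activin receptor ALK7, encoded by Acvr1c. In obese fat, TGF-beta is known as a regulator of fibrosis and of progenitor cell fate.

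Of the 9 genes, 2 were higher and 3 lower in HFD + IMC mice, and 4 did not pass the test. Inhbb and Smad7 rose, Tgfb1, Tgfbr1 and Tgfbr2 fell, and Tgfb2, Tgfb3, Smad3 and Ctgf were not past an adjusted p of 0.05 by limma with Benjamini-Hochberg adjustment over all genes. Among all 12787 genes tested, 40.9% passed the same threshold, 20% upward and 21% downward with IMC. The groups did not overlap for 3 of the 9 genes (Inhbb, Tgfb1 and Tgfbr1), against 23.1% of all genes. The median log2 fold change was -0.08 over the 9 genes and -0.03 over all genes tested. The 5 called genes are 55.6% of the 9, and that share was not tested against the share of all genes.

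**Figure D1:**
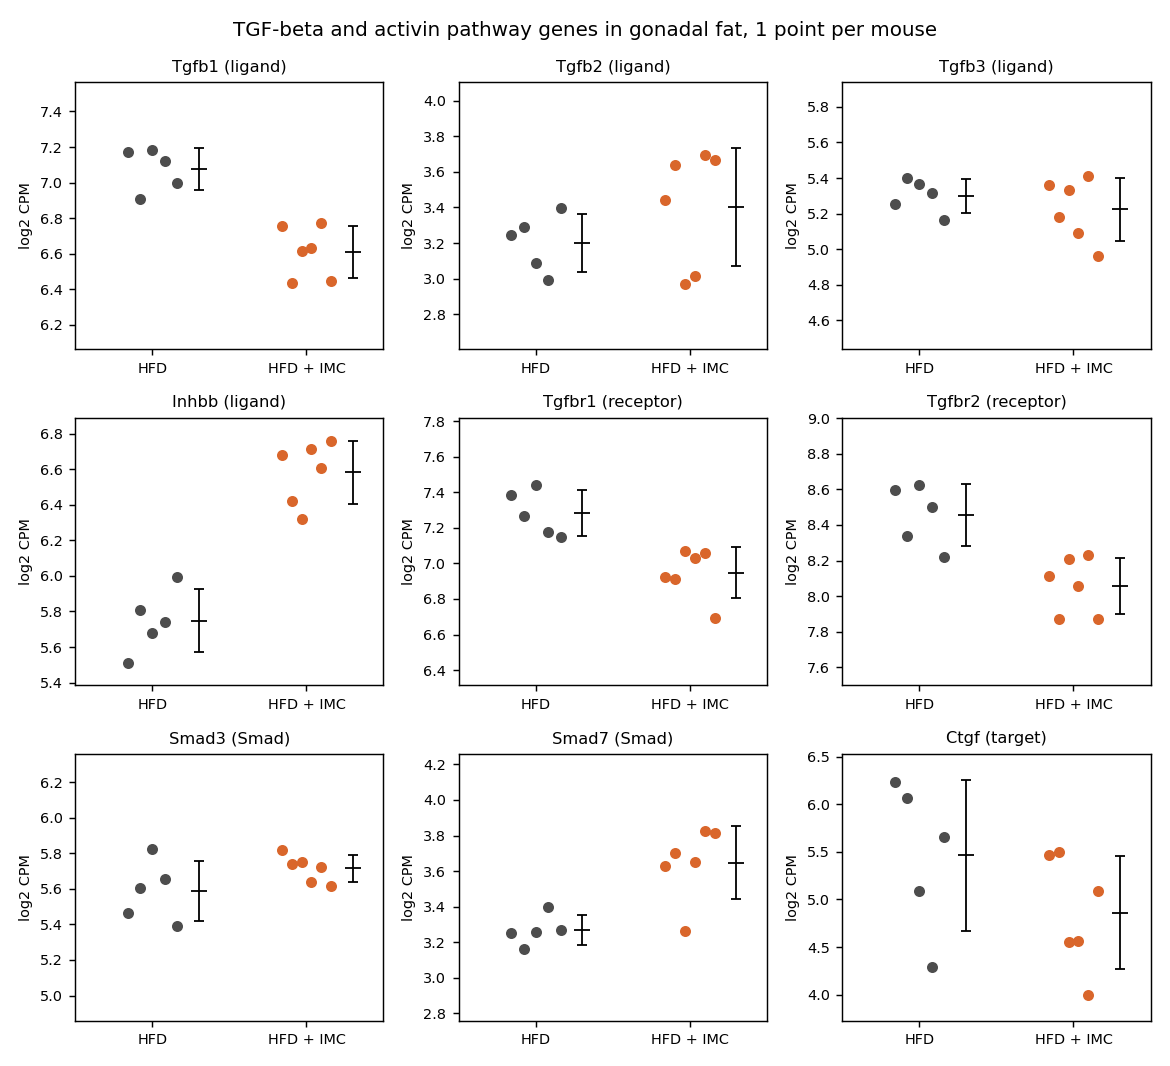
Log2 CPM of the 9 genes in each mouse (points), with the mean and SD of each group (dash and bars, n = 5 HFD and n = 6 HFD + IMC). The vertical axis spans the same width in every panel except that of Ctgf, which is wider. All 6 HFD + IMC mice lie above all 5 HFD mice for Inhbb and below them for Tgfb1 and Tgfbr1.

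The bases before the annotated start were examined for the genes that moved. RefSeq promoters of the build GRCm38.p6 were matched for 6 of the 9 genes (Tgfb1, Tgfb2, Tgfbr1, Tgfbr2, Inhbb and Smad3), and the 250 bases upstream of the start are printed for the 3 genes that fell, for Inhbb, which rose, and for Tgfb2, a ligand gene set beside Tgfb1 below. Tgfb3, Smad7 and Ctgf were not matched. The windows are chr7:25686752-25687001 on the plus strand for Tgfb1, chr4:47352972-47353221 on the plus strand for Tgfbr1 and chr9:116175364-116175613 on the minus strand for Tgfbr2. Those of Inhbb and Tgfb2 are chr1:119422249-119422498 and chr1:186705990-186706239, both on the minus strand. Each is written 5′ to 3′ toward the start, and capitals mark the matches of a motif on either strand.
Tgfb1: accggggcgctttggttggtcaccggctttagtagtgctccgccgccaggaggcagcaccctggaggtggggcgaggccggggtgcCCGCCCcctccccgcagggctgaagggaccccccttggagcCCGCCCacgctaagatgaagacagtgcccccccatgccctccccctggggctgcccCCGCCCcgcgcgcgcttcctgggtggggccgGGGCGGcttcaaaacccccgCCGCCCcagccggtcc
Tgfbr1: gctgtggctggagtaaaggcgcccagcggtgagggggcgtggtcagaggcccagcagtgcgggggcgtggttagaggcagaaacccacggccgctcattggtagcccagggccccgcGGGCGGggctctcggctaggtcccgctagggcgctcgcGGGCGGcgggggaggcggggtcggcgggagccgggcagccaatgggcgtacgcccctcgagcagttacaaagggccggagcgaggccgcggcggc
Tgfbr2: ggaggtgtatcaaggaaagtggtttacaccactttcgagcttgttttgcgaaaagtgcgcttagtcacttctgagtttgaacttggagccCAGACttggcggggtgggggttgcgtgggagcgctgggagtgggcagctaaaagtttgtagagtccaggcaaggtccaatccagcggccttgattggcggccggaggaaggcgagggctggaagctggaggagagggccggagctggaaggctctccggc
Inhbb: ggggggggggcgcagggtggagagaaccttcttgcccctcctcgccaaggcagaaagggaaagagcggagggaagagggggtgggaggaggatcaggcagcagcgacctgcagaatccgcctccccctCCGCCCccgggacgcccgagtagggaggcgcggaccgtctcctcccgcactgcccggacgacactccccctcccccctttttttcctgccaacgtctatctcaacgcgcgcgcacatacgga
Tgfb2: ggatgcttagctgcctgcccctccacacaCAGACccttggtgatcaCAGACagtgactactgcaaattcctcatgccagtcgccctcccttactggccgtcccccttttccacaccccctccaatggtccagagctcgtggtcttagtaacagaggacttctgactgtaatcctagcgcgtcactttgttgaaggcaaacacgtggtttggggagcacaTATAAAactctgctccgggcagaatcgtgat
The GC box GGGCGG, a motif bound by Sp family factors, matched 5 times before Tgfb1, 2 times before Tgfbr1, 1 time before Inhbb and 2 times before Smad3, which did not pass the test, and it was in 32.7% of all 32851 promoter windows of this length. The core CAGAC, found in elements that bind SMAD3 and SMAD4, matched 2 times before Tgfb2 and 1 time before Tgfbr2, and was in 42.2% of all windows. Tgfb2 was the only member of the 6 with the TATA motif TATAAA, 31 bases before the start, a motif in 12.4% of all windows. Searches for the AP-1 motif TGACTCA (in 4.46% of all windows), for the SMAD palindrome GTCTAGAC (0.167%) and for the cyclic AMP element TGACGTCA (1.55%) found no match in the 6 windows. The GC content of the window was 75.2% for Tgfb1, 74.8% for Tgfbr1, 68.0% for Inhbb, 69.2% for Smad3, 58.4% for Tgfbr2 and 53.6% for Tgfb2, against a median of 52.4% over all windows. Thus the 3 genes that fell did not share a matched motif, since Tgfbr2 had no GC box.

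The libraries held 22320022 to 25155366 reads on the listed genes, and each of the 9 genes had at least 175 reads in every mouse. Of the adipocyte markers looked up to check the tissue, 11 of 11 were listed and 10 were higher in HFD + IMC mice. Their summed level was 17962 to 21720 CPM in HFD mice and 28312 to 32723 CPM in HFD + IMC mice. Abundance within a marker list is by mean log2 CPM over all 11 mice and is not divided by gene length. By this measure the most abundant adipocyte marker was the fatty acid transporter gene Cd36. It was the 1 adipocyte marker that did not pass (log2 fold change 0.03, limma adjusted p = 0.825). Fabp4, named after its values were seen, had a higher mean than Cd36 in the HFD + IMC mice and had a log2 fold change of 0.71. Macrophage markers moved the other way. Of 12 listed, 10 were lower and 0 higher, and their sum was 12328 to 16625 CPM in HFD mice and 6551 to 10442 CPM in HFD + IMC mice, with a log2 fold change of -0.82 for the most abundant, Gpnmb. Of the 10 progenitor and fibroblast markers, 1 (Col15a1, the most abundant, log2 fold change 0.35) was higher and 5 were lower, with sums of 3330 to 3728 and 2870 to 3546 CPM. The 6 mural cell markers had 4 higher, led by Mcam with a log2 fold change of 0.97, and their sum went from 478 to 636 CPM in HFD mice and from 817 to 1018 CPM in HFD + IMC mice. Of 8 endothelial markers 1 was higher (sums 458 to 647 and 536 to 746 CPM, Pecam1 most abundant at a log2 fold change of 0.18 and an adjusted p of 0.182), and of 5 listed mesothelial markers 1 was lower (sums 225 to 310 and 104 to 253 CPM, Upk3b most abundant at -0.42 and an adjusted p of 0.226). Skeletal muscle had 2 of 7 markers listed, both higher, with sums of 12.2 to 17.4 CPM in HFD mice and 29.8 to 55.7 CPM in HFD + IMC mice, mainly from Acta1 (log2 fold change 1.23). None of the 7 lymphocyte markers and none of the 7 epididymis markers was listed. In this bulk tissue, fewer cells of a type and less RNA per cell cannot be told apart, and the part of these marker shifts in the results below was not tested.

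Among the ligand genes, Tgfb1 fell, Inhbb rose, and Tgfb2 and Tgfb3 did not pass the test. Tgfb1 (chr7:25687002-25705077, plus strand, in the GENCODE M21 annotation of GRCm38) had log2 CPM values of 7.17, 6.91, 7.18, 7.12 and 7.0 in HFD mice 1 to 5. In HFD + IMC mice its lowest value was 6.43, the median 6.62 and the highest 6.78. Every HFD + IMC mouse was thus below every HFD mouse, with a gap of 0.13 between the groups. The group means were 7.08 ± 0.12 (SD, n = 5) and 6.61 ± 0.15 (SD, n = 6), a log2 fold change of -0.47 (SE 0.07, limma adjusted p = 0.000401), or 0.724 times the HFD level. The two-sided exact permutation test over the 462 ways to regroup the mice gave p = 0.00216, the smallest it allows here. Macrophages are a known source of TGF-beta 1. The macrophage marker sum given above was also lower in every HFD + IMC mouse than in every HFD mouse. Of its 12 markers, 10 were lower. Mrc1 (log2 fold change -0.24, limma adjusted p = 0.103) and Cd163 (0.27, limma adjusted p = 0.335), named after their values were seen, did not pass. The part of macrophages in the fall of Tgfb1 was not tested.

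Inhbb, on the minus strand at chr1:119415465-119422248, had the largest absolute change of the 9 genes. Its log2 CPM was 5.51, 5.81, 5.68, 5.74 and 5.99 in HFD mice 1 to 5, and in HFD + IMC mice it ranged from 6.32 to 6.76 with a median of 6.64. The groups were apart by 0.32, wider than the SD of 0.18 in either group. The log2 fold change was 0.84 (SE 0.09, 95% interval 0.63 to 1.04, limma adjusted p = 4.58e-05), which is 1.79 times the HFD level. By p, Inhbb was gene 169 of the 12787 tested, and Tgfb1 was gene 832. The adipocyte marker sum was also higher in every HFD + IMC mouse than in every HFD mouse. Of its 11 markers, 10 were higher and Cd36 did not pass. The part of adipocytes in the rise of Inhbb was not tested. A comparison with Inhba, which encodes the beta A subunit of activin A, was not made because Inhba was not listed.

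Tgfb2 (chr1:186622792-186705989, minus strand) was the least abundant of the ligand genes. HFD mice 1 to 5 had 3.24, 3.29, 3.09, 2.99 and 3.40 log2 CPM. The HFD + IMC mice ranged from 2.97 to 3.69, with HFD + IMC mice 3 and 4 near 3.0 and the other 4 between 3.44 and 3.69. The log2 fold change of 0.20 (95% interval -0.11 to 0.52, limma adjusted p = 0.287) did not exceed the spread between mice, and the interval allows a rise as well as a small fall. For Tgfb3 (chr12:86056745-86079041, minus strand), the 5 HFD mice had 5.25, 5.40, 5.37, 5.32 and 5.16 log2 CPM and the HFD + IMC mice 4.96 to 5.41 with a median of 5.26. Its log2 fold change was -0.08 (95% interval -0.25 to 0.10, limma adjusted p = 0.482). Exons of Tgfb2 overlap the antisense transcript Gm29491, and those of Tgfb3 overlap Gm37804 and Gm48008 on the other strand. The strand setting of the count is not given in the sources used here, so reads of these transcripts could be in the values.

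Both receptor genes fell. Tgfbr1, the type I receptor gene at chr4:47353222-47414931 on the plus strand, had 7.38, 7.26, 7.44, 7.18 and 7.15 log2 CPM in HFD mice 1 to 5. Its values in HFD + IMC mice ranged from 6.69 to 7.07 with a median of 6.98, so the groups did not overlap, although the gap was only 0.08. Its log2 fold change was -0.33 (SE 0.07, limma adjusted p = 0.00341). Tgfbr2, the type II receptor gene at chr9:116084293-116175360 on the minus strand, had 8.60, 8.34, 8.63, 8.50 and 8.22 log2 CPM in the HFD mice and 7.87 to 8.23 with a median of 8.09 in the HFD + IMC mice. Here the groups met, since HFD mouse 5 at 8.22 lay just under HFD + IMC mouse 5 at 8.23. The log2 fold change of Tgfbr2 was -0.40 (SE 0.09, limma adjusted p = 0.00341) and the exact permutation p was 0.00433. Within a mouse, the log2 ratio of Tgfbr1 to Tgfbr2 was -1.17 ± 0.11 (SD, n = 5) in HFD mice and -1.11 ± 0.10 (SD, n = 6) in HFD + IMC mice. The groups differed in this ratio by 0.06, less than either SD (exact permutation test, two-sided, p = 0.320, adjusted p = 0.360 over 9 ratios). Of the marker lists given above, 10 of 12 macrophage genes were also lower. Of 10 progenitor and fibroblast genes, 5 were lower and 1 higher, and their sums overlapped between the groups. Adipocyte genes (10 of 11) and mural genes (4 of 6) were higher, and over all genes 21% were lower and 20% higher. The part of these marker shifts in the receptor result was not tested.

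**Figure D2:**
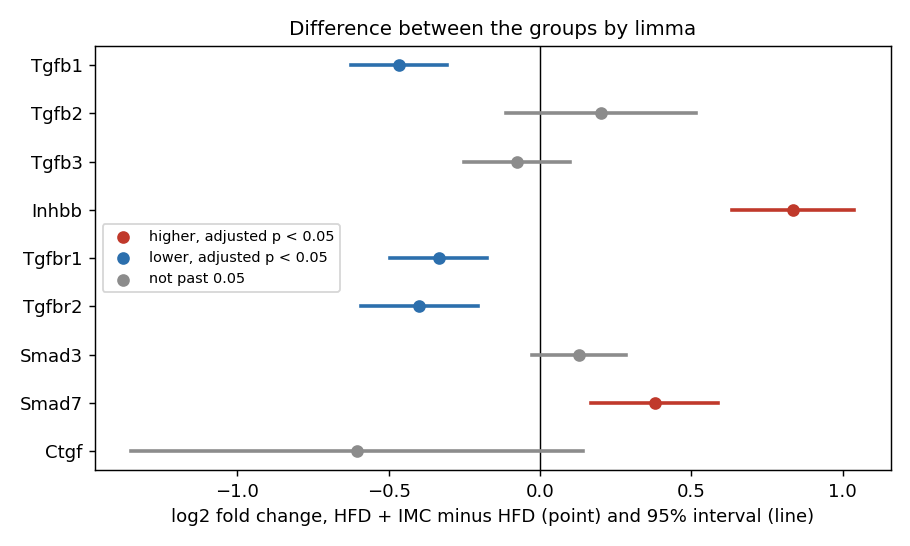
Log2 fold change of HFD + IMC against HFD by limma (points) with its 95% interval (lines) for the 9 genes, n = 5 and n = 6 mice. The intervals of Inhbb and Smad7 lie above 0, those of Tgfb1, Tgfbr1 and Tgfbr2 below 0, and the interval of Ctgf is the widest, from -1.35 to 0.14.

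Of the intracellular signaling genes, the inhibitory Smad7 rose and Smad3, which carries the receptor signal to the nucleus, did not pass the test. Smad7 (chr18:75367529-75395935, plus strand) had 3.25, 3.16, 3.26, 3.40 and 3.27 log2 CPM in HFD mice 1 to 5, a narrow range. The HFD + IMC mice had values from 3.26 to 3.83 with a median of 3.68, and all but HFD + IMC mouse 3, at 3.26, were above every HFD mouse. The log2 fold change was 0.38 (SE 0.10, limma adjusted p = 0.00778), 1.30 times the HFD level, and the exact permutation p was 0.00866. These values rested on 209 to 350 reads per mouse. Smad3 (chr9:63646767-63757994, minus strand) had 5.46, 5.60, 5.83, 5.65 and 5.39 log2 CPM in the HFD mice and 5.62 to 5.82 with a median of 5.73 in the HFD + IMC mice. Its log2 fold change was 0.13 (95% interval -0.03 to 0.28, limma adjusted p = 0.177). Without HFD mouse 3, the highest of its group for Smad3, the log2 fold change was 0.19 (limma adjusted p = 0.0387). In the other 19 of the 20 alternatives run, Smad3 did not pass (limma adjusted p up to 0.388). The log2 ratio of Smad7 to Smad3 was -2.32 ± 0.18 (SD, n = 5) in HFD mice and -2.07 ± 0.25 (SD, n = 6) in HFD + IMC mice, a difference that did not pass (exact permutation test, p = 0.0909, adjusted p = 0.136 over 9 ratios). Without HFD + IMC mouse 3 the difference was 0.34 in place of 0.25, with an adjusted p of 0.0238 by the exact permutation test. With each of the other 10 mice left out in turn, the ratio did not pass (adjusted p 0.114 to 0.293 by the same test).

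Ctgf (now Ccn2, chr10:24595442-24598683, plus strand), which encodes a matricellular protein and is a known target of TGF-beta and of YAP, varied more between mice than the other 8 genes. The HFD mice had 6.23, 6.06, 5.08, 4.29 and 5.66 log2 CPM, and the HFD + IMC mice had 5.46, 5.50, 4.55, 4.56, 4.0 and 5.09. The lowest HFD mouse was lower than 5 of the 6 HFD + IMC mice. The SD within groups was 0.69 on the log2 scale, larger than that of 99.9% of the genes tested, whose median was 0.13. The log2 fold change of -0.60 (SE 0.35, 95% interval -1.35 to 0.14, limma adjusted p = 0.182) had an interval that includes either direction, and the exact permutation p was 0.197. Without HFD mouse 4, the lowest of its group, the log2 fold change was -0.90 (limma adjusted p = 0.0341). In the other 19 of the 20 alternatives run, Ctgf did not pass (limma adjusted p up to 0.388). An exon of Ctgf overlaps the antisense transcript Gm15270. The log2 ratio of Ctgf to Tgfb1 differed by -0.14 (exact permutation test, p = 0.773), and its sign turned without HFD mouse 1 (0.03), HFD mouse 2 (0.05) or HFD + IMC mouse 5 (0.07).

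Per kilobase of exon, the order of the 9 genes changed between the groups. In HFD mice the type II receptor gene Tgfbr2 was highest with 43.2 ± 5.06 CPM per kilobase (SD, n = 5), apart from all mice for the next gene, Tgfb1 with 26.8 ± 2.15. Tgfbr1 with 23.9 ± 2.12, Ctgf with 17.2 ± 7.99, Inhbb with 12.7 ± 1.57 and Tgfb3 with 11.7 ± 0.756 came next, and from Tgfb1 to Tgfb3 the mice of each gene overlapped those of the gene after it. Smad3 with 8.72 ± 1.04, Smad7 with 2.13 ± 0.126 and Tgfb2 with 1.60 ± 0.178 followed, each apart from the gene before it. In HFD + IMC mice Tgfbr2 was again highest with 32.7 ± 3.53 CPM per kilobase (SD, n = 6). Inhbb, which had followed Ctgf in the HFD mice, was next with 22.7 ± 2.68, and overlapped Tgfb1 with 19.5 ± 1.95, which in turn overlapped Tgfbr1 with 19.0 ± 1.79. Tgfb3 with 11.1 ± 1.33 was apart from Tgfbr1. Ctgf with 10.9 ± 4.21 reached from 5.58, below every mouse of Smad3 (9.49 ± 0.501), through the range of Tgfb3 to the lowest mouse of Tgfbr1. Smad7 with 2.79 ± 0.369 overlapped Tgfb2 with 1.87 ± 0.401 at the low end.

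**Figure D3:**
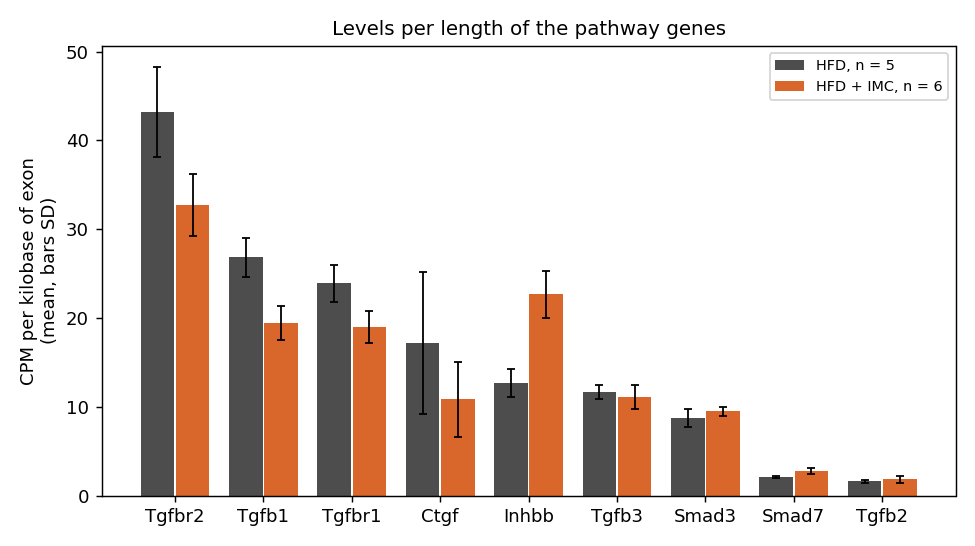
Mean level of the 9 genes in CPM per kilobase of exon (bars) with the SD between mice (lines) in HFD mice (grey, n = 5) and HFD + IMC mice (orange, n = 6), ordered by the HFD mean. Inhbb is at 12.7 in HFD mice and 22.7 in HFD + IMC mice, where it stands beside Tgfb1 and Tgfbr1.

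The 3 TGF-beta ligand genes shifted in their proportions. Per kilobase, Tgfb1 made up 66.9% ± 2.39 (SD, n = 5) of the summed level of Tgfb1, Tgfb2 and Tgfb3 in HFD mice and 60.0% ± 1.96 (SD, n = 6) in HFD + IMC mice (exact permutation test, p = 0.00649, adjusted p = 0.0130 over 3 shares). Tgfb3 made up 29.1% ± 2.17 and 34.2% ± 1.74 (exact permutation test, p = 0.00866, adjusted p = 0.0130), and Tgfb2 4.0% ± 0.625 and 5.80% ± 1.42 (exact permutation test, p = 0.0303, adjusted p = 0.0303). Because the shares add to 100%, they are not independent. Tgfb1 fell, while Tgfb2 and Tgfb3 had no called rise of their own, and the part of each gene in the shift was not tested.

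Ratios of 2 genes within a library do not depend on the scaling between libraries, and 9 such ratios were compared. The log2 ratio of Tgfb3 to Tgfb1 was -1.92, -1.51, -1.81, -1.80 and -1.83 in HFD mice 1 to 5 and -1.54 to -1.25 in the HFD + IMC mice. Only HFD mouse 2 reached into the range of the HFD + IMC mice. The difference of 0.39 passed (two-sided exact permutation test, p = 0.00433, adjusted p = 0.0195 over 9 ratios). For Tgfb2 to Tgfb1 the difference was 0.67, from -3.88 ± 0.25 (SD, n = 5) to -3.21 ± 0.38 (SD, n = 6), with an adjusted p of 0.0351 by the exact permutation test, and for Tgfb3 to Tgfb2 it was -0.28 (adjusted p = 0.237 by the exact permutation test).

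Inhbb also rose relative to the genes of its secreted antagonists. Fst encodes follistatin and Fstl3 a follistatin-like protein, both of which bind activins. The log2 ratio of Inhbb to Fst was 1.53, 1.77, 1.26, 1.48 and 1.94 in HFD mice 1 to 5 and 1.82 to 3.27 in HFD + IMC mice, with overlap. It differed by 0.74 (exact permutation test, p = 0.0173, adjusted p = 0.0351 over 9 ratios). Fst itself had a log2 fold change of 0.09 (SE 0.17, 95% interval -0.28 to 0.47, limma adjusted p = 0.697). Fstl3 rose by 0.43 (SE 0.07), less than Inhbb, and the log2 ratio of Inhbb to Fstl3 was 2.42 ± 0.18 (SD, n = 5) and 2.83 ± 0.15 (SD, n = 6), with an adjusted p of 0.0325 by the exact permutation test.

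The activin type I receptor genes Acvr1c and Acvr1b rose unequally. Acvr1c, whose product ALK7 binds activin B and GDF3 and is known to be abundant in adipocytes, had 5.47 ± 0.22 log2 CPM (SD, n = 5) in HFD mice and 6.62 ± 0.23 (SD, n = 6) in HFD + IMC mice. Its log2 fold change of 1.16 (SE 0.12, limma adjusted p = 3.50e-05) was 2.23 times the HFD level, and per kilobase it went from 4.80 ± 0.741 to 10.7 ± 1.79 CPM. Acvr1b, which encodes ALK4, rose by 0.45 (SE 0.07). The log2 ratio of Acvr1c to Acvr1b was 0.21, 0.61, 0.24, 0.36 and 0.46 in HFD mice 1 to 5 and 0.88 to 1.39 in the HFD + IMC mice, without overlap (difference 0.70, exact permutation test, p = 0.00216, adjusted p = 0.0195 over 9 ratios). The type II receptor gene Acvr2a, named here after its values were seen, had 5.95 ± 0.326 and 5.94 ± 0.349 CPM per kilobase in the groups.

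**Figure D4:**
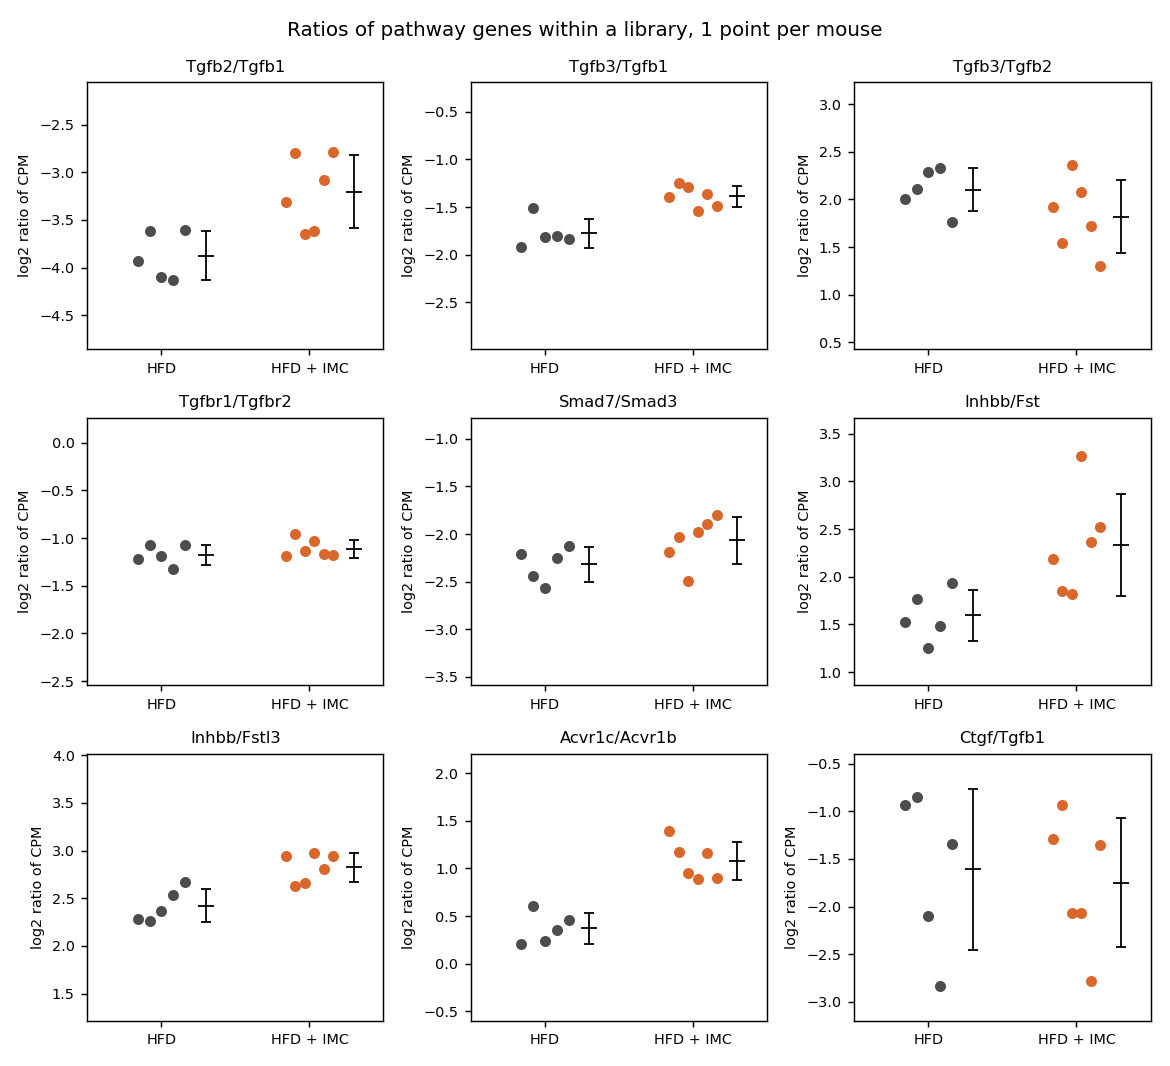
Log2 ratio of 2 genes within each library (points) with the mean and SD of each group (dash and bars, n = 5 HFD and n = 6 HFD + IMC). Every panel spans the same width on the log2 scale. Acvr1c to Acvr1b is the ratio whose groups do not overlap, and Tgfbr1 to Tgfbr2 has the narrowest spread.

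With single mice left out, these ratios kept their direction, except that of Ctgf to Tgfb1, but not always their adjusted p. For Tgfb3 to Tgfb1 and for Acvr1c to Acvr1b it reached 0.0714 without HFD + IMC mouse 1, 5 or 6. For Inhbb to Fstl3 it was 0.0536 to 0.0714 without HFD mouse 1, 3 or 4 or HFD + IMC mouse 1, 4, 5 or 6. For Tgfb2 to Tgfb1 it was 0.0536 to 0.0857 without HFD mouse 1, 3 or 4 or HFD + IMC mouse 1, 2, 4, 5 or 6, and for Inhbb to Fst 0.0571 to 0.0857 without HFD mouse 1, 2, 3 or 4 or HFD + IMC mouse 1, 4, 5 or 6. With 5 mice against 5, the exact permutation test allows no p under 0.00794 before adjustment. Since the groups of Acvr1c to Acvr1b do not overlap, its p before adjustment was the smallest allowed each time. Its adjusted p thus moved only with the number of regroupings and with the p-values of the other ratios.

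Other genes of the pathway were counted from 7 lists that together named 113 genes, of which 92 were listed. At an adjusted p under 0.05 by limma, 20 were higher and 21 lower in HFD + IMC mice, with a median log2 fold change of -0.03, the same as over all genes tested. These counts lie near the shares over all genes, of which 20% were higher and 21% lower, and nothing particular to the pathway is read from them or from the counts of the single lists.

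**Figure D5:**
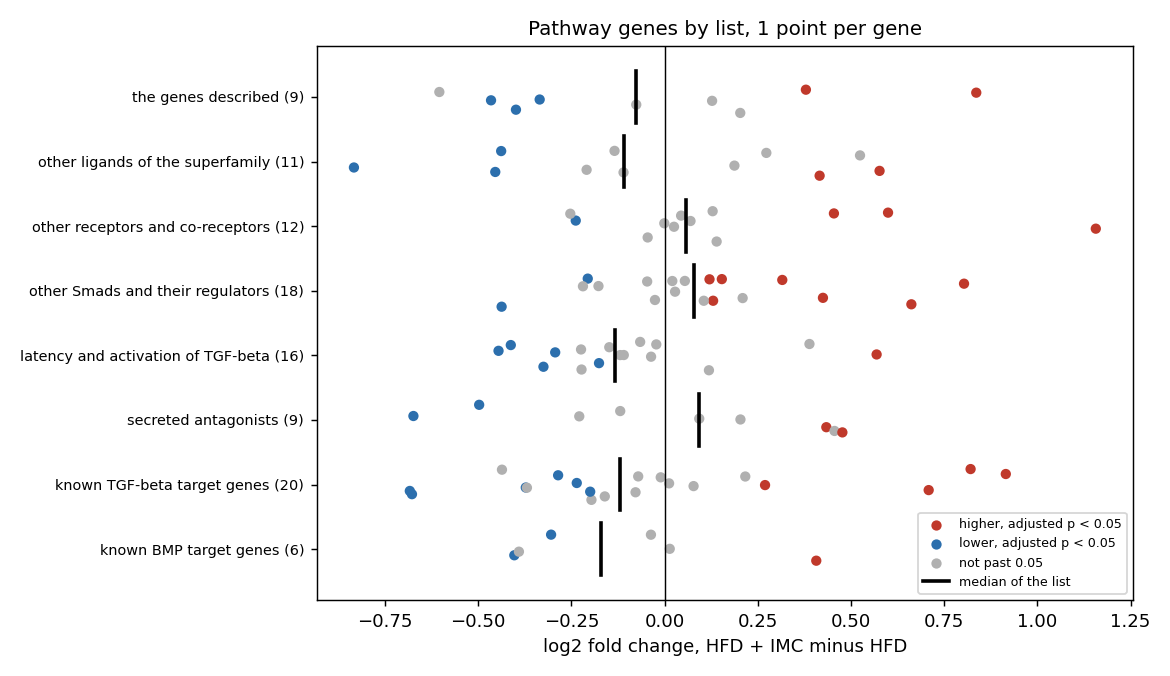
Log2 fold changes of pathway genes by list (points, 1 per gene, jittered vertically), with the number of listed genes in brackets and the median of each list as a black line. Red and blue points passed an adjusted p of 0.05 by limma, and each list holds genes of both colors.

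Among other ligands, 2 of 11 listed genes were higher and 3 lower (median log2 fold change -0.11). Bmp3, a ligand that opposes other bone morphogenetic proteins (BMPs), rose by 0.58 (SE 0.10) with no overlap. Gdf15, a stress-induced cytokine of the family, was lower by a log2 fold change of -0.83 (SE 0.21), and Gdf3, a ligand of ALK7 that macrophages of obese fat are known to make, one of -0.44 (SE 0.12). Thus of the ALK7 ligand genes named here, Inhbb rose and Gdf3 fell. Without HFD mouse 1, 1 ligand in place of 2 was higher.

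Of 12 other receptors and co-receptors, 3 were higher and 1 lower (median 0.06). The 3 were Acvr1c, Acvr1b and Bmpr1a, a BMP type I receptor gene that rose by 0.60 (SE 0.06), while the 1 lower gene, Acvrl1, which encodes the type I receptor ALK1 of endothelial cells, fell by 0.24 (SE 0.06) and is named here after its values were seen. All 4 had groups that did not overlap. Of 18 other Smads and regulators, 7 were higher and 2 lower (median 0.08). Nedd4l and Ppm1a, which encode a ubiquitin ligase and a phosphatase that act on SMADs, rose by 0.42 (SE 0.06) and 0.32 (SE 0.06). Pmepa1, which encodes an inhibitor of SMAD2 and SMAD3 activation, rose by 0.80 (SE 0.16). Smad6, the other inhibitory Smad and named after its values were seen, rose by 0.66 (SE 0.14, limma adjusted p = 0.00265). Both inhibitory Smad genes were thus higher. The 2 lower genes of this list were Tgif1 and Ski, also named after their values were seen. Tgif1 was at -0.44 (limma adjusted p = 0.00482, no overlap) and Ski at -0.21 (limma adjusted p = 0.0105, with overlap). Genes of this list thus moved in both directions.

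Of 16 listed genes for latency and activation of TGF-beta, 1 was higher and 5 lower (median -0.13). Ltbp3, which encodes a latent TGF-beta binding protein, rose by 0.57 (SE 0.10) with no overlap. Nrros, which encodes a protein that anchors latent TGF-beta 1 on macrophages and microglia, was lower at a log2 fold change of -0.45 (SE 0.08) with no overlap, and Itgav, the alpha V chain of the integrins that activate it, one of -0.29 (SE 0.08). Nrros thus moved with the macrophage markers listed above, whose part was not tested. Without HFD + IMC mouse 6 there were 2 higher genes, and without HFD mouse 3 there were 3 lower genes. Of 9 secreted antagonists, 2 were higher and 2 lower (median 0.09). Besides Fstl3, Chrdl1, which encodes a BMP antagonist of the chordin family, rose by 0.48 (SE 0.13), and Nbl1, which encodes a BMP antagonist of the DAN family, was lower at a log2 fold change of -0.67 (SE 0.14). Without HFD + IMC mouse 4 there were 4 higher antagonists, and without HFD mouse 1, 2 or 3 or HFD + IMC mouse 1, 2 or 4 there was 1 lower antagonist.

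Known target genes of TGF-beta included 4 of 20 that were higher and 6 that were lower (median -0.12), beside 20% and 21% of all genes. Lox, which encodes the collagen cross-linking enzyme lysyl oxidase, had 7.23 ± 0.10 log2 CPM (SD, n = 5) in HFD mice and 8.05 ± 0.22 (SD, n = 6) in HFD + IMC mice, a log2 fold change of 0.82 (SE 0.09, limma adjusted p = 5.10e-05) with no overlap. Acta2, which encodes smooth muscle actin, rose by 0.71 (SE 0.13), also with no overlap. Among the lower targets, named after their values were seen, were the matrix genes Postn at -0.68 and Col1a1 at -0.37 and the transcription factor gene Junb at -0.68. Acta2 is also expressed by mural cells, whose marker sum was higher in every HFD + IMC mouse than in every HFD mouse. Of the 6 mural markers, 4 were higher. Myh11 (log2 fold change 0.48, limma adjusted p = 0.248) and Pdgfrb (-0.12, limma adjusted p = 0.108), named after their values were seen, did not pass. The collagen and Postn genes are expressed by fibroblasts, whose 10 markers had 5 lower and 1 higher. The part of these shifts was not tested.

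Of 6 listed BMP target genes, 1 was higher and 2 lower (median -0.17). Id3, an inhibitor of helix-loop-helix factors, rose by 0.41 (SE 0.11). Id2 and Msx1 were just past the threshold at log2 fold changes of -0.30 and -0.40 (limma adjusted p = 0.0402 and 0.0461). Without HFD mouse 1, 3 or 4 or HFD + IMC mouse 1 or 2, 0 of the BMP target genes were lower, and without HFD mouse 5 or HFD + IMC mouse 3, 4, 5 or 6 it was 1.

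For each of the 5 called genes, the nearest genes in pattern were those with the smallest root mean square difference in centred log2 CPM over the 11 mice. Tgfb1 was nearest to Adssl1, an adenylosuccinate synthase gene (0.0688), and to Rap2b, a small GTPase gene (0.0722). Inhbb was nearest to Paqr9 (0.0651) and Abhd15 (0.0850), the latter a gene of adipocytes that limits lipolysis. The nearest genes to Tgfbr1 were Nfya, a subunit gene of the factor NF-Y (0.0438), and Sgpl1, sphingosine phosphate lyase (0.0481), and those to Tgfbr2 were Vwa5a (0.0488) and Cdc42se2 (0.0535). Smad7 was nearest to Dmxl2 (0.0855) and Zfp770 (0.0891). For comparison, the root mean square of the gene around its own mean was 0.262 for Tgfb1, 0.446 for Inhbb, 0.207 for Tgfbr1, 0.248 for Tgfbr2 and 0.240 for Smad7, and these mice share the difference between the groups.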

How the data were processed

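For the directional mRNA libraries, the authors used Trim Galore for trimming and STAR for alignment to mm10 (UCSC annotation), then counted reads per gene, removed genes with low counts and scaled the libraries by the upper quartile with edgeR. A control sample was left out by the authors for quality. The authors deposited log2 CPM values for 12787 genes in 11 mice. The 5 further columns deposited hold the authors' own comparison (log2 fold change, mean log2 CPM, likelihood ratio score, p-value and FDR) and were not used.

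Groups came from the labels, which name no batch. The log2 CPM values were compared with limma 3.58.1 in R 4.3.3 (lmFit, eBayes with trend) without a further filter, with Benjamini-Hochberg adjustment over all genes and a threshold of 0.05. For ratios and shares, an exact permutation test (two-sided) covered all 462 regroupings. All deposited values (100%) came from whole reads to within 0.05 of a read, which gave the depth of 22320022 to 25155366 reads and the input for other scalings and for voom in limma. No pair of libraries of the same group agreed within counting noise, and pairs between the groups were not compared.

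Exon lengths and positions came from GENCODE M21 (12731 of 12787 genes matched), promoters from RefSeq (GRCm38.p6). The scripts were tested on simulated data.

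The members and lists were chosen with earlier results of these data known. Besides the members, the text names the 3 genes with the smallest p of each other pathway list and the genes of each ratio. By the same rule it names the 2 genes nearest in pattern to each called member and the gene of each marker list with the highest mean log2 CPM. A gene that this rule names among the TGF-beta targets is not reported here. Alternatives were other scalings, an added constant of 2 reads, a minimum mean of 1 log2 CPM, no variance trend, weights per mouse, voom and each mouse left out. Figures were made with matplotlib 3.10.9.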

Additional observations from a re-analysis of the deposited data

Results flagged for a closer look

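In 78 groups of mice and measures checked for a single distant mouse, 2 were marked, where chance marks about 1 in 20. HFD + IMC mouse 3 had 3.26 log2 CPM of Smad7, while the nearest of the other HFD + IMC mice had 3.63, and this gap was 0.649 of the range of the group, above the critical value of 0.625 for 6 mice. HFD mouse 2 had a log2 ratio of Tgfb3 to Tgfb1 of -1.51, while the nearest other HFD mouse was at -1.80, a gap of 0.718 of the range, above the critical value of 0.710 for 5 mice.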

How the results depend on the processing

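The calls of Tgfb1, Inhbb, Tgfbr1, Tgfbr2 and Smad7 kept their direction and stayed under an adjusted p of 0.05 by limma with Benjamini-Hochberg adjustment in all 20 alternatives run. The log2 fold change was between -0.51 and -0.43 for Tgfb1, 0.78 and 0.90 for Inhbb, -0.37 and -0.28 for Tgfbr1, -0.46 and -0.36 for Tgfbr2, and 0.34 and 0.46 for Smad7. Tgfb2 and Tgfb3 stayed over the threshold throughout. With single mice left out, the log2 fold change was 0.078 to 0.19 for Smad3 and -0.90 to -0.41 for Ctgf. The genes called ranged from 1 to 2 higher ligands, 1 to 2 higher and 3 to 7 lower latency genes, 2 to 4 higher and 1 to 2 lower antagonists, and 0 to 2 lower BMP targets. The lower BMP targets were also 1 without a variance trend, with weights per mouse, with voom and TMM, and with median-of-ratios scaling, the last chosen after seeing the data. Differences in log2 ratio with single mice left out were 0.58 to 0.76 for Tgfb2 to Tgfb1, 0.35 to 0.46 for Tgfb3 to Tgfb1, 0.56 to 0.85 for Inhbb to Fst, 0.36 to 0.46 for Inhbb to Fstl3, 0.64 to 0.76 for Acvr1c to Acvr1b, 0.19 to 0.34 for Smad7 to Smad3 and -0.44 to 0.067 for Ctgf to Tgfb1. For Ctgf to Tgfb1 the reversed values were 0.03 without HFD mouse 1, 0.05 without HFD mouse 2 and 0.067 without HFD + IMC mouse 5. Fewer mice allow fewer regroupings, and the cause beyond that was not tested. No scaling moved the median of all genes by more than 0.1. Over all genes 5185 were called by voom on recovered reads against 5236 as reported, and 4299 to 5125 with single mice left out. The planned tests of edgeR and DESeq2 were not run. The deposited values are log2 CPM, and the reads recovered from them were used for voom in limma instead. No paired analysis was possible because the mouse numbers are only names and do not pair mice of the groups.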
